A study of Homo sapiens with 5 samples.

Results

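Aldo-keto reductases are cytosolic enzymes that reduce carbonyl groups with NADPH, and 6 of their genes were followed by symbol among the 36601 features measured in MDA-MB-468 cells. These were AKR1C1, AKR1C2, AKR1C3, AKR1B1, AKR1B10 and AKR1A1. MDA-MB-468 is a human breast cancer cell line of the triple-negative class, established from a pleural effusion. The study asked what inhibition of acetyl-CoA carboxylase, which supplies malonyl-CoA to fatty acid synthesis, does to cancer cells, and its inhibitor is labelled PF0517515. Single-cell RNA was read in 5 libraries of this 1 line, 1 library per group. Cells exposed to PF0517515 were taken after 6 h and after 72 h, and a further library is labelled as recovery cells after a 72 h treatment. Untreated cells were taken at 0 h and at 72 h. The labels give no dose, no vehicle, no length of recovery and no untreated library at 6 h, and they name no genetic change in any group. With 1 library per group there is no replicate, so no difference could be tested, and every interval covers counting error only.

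The AKR1C enzymes act on steroid hormones and prostaglandins. AKR1C1 inactivates progesterone, AKR1C2 inactivates dihydrotestosterone, and AKR1C3 makes testosterone from androstenedione and prostaglandin F from its precursors. AKR1B1 is aldose reductase, which turns glucose into sorbitol in the polyol pathway, and AKR1B10 reduces retinal and lipid aldehydes. AKR1B10 protein is known to bind and stabilise acetyl-CoA carboxylase alpha in breast cancer cells. AKR1A1 is the broadly expressed aldehyde reductase. AKR1C genes and AKR1B10 are known targets of NRF2, the transcription factor of the oxidant and electrophile response, which acts through the antioxidant response element.

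On GRCh38 with the GENCODE 29 annotation, AKR1C1 lies on chromosome 10 from 4963253 to 4983283 on the plus strand. AKR1C2 follows from 4987400 to 5018031 on the minus strand, and AKR1C3 from 5035354 to 5107686 on the plus strand. AKR1B1 lies on chromosome 7 from 134442350 to 134459284 on the minus strand, and AKR1B10 from 134527592 to 134541408 on the plus strand. AKR1A1 lies on chromosome 1 from 45550543 to 45570049 on the plus strand. Promoter windows were found for 5 of the 6 members in RefSeq's table on GRCh38.p14, each running from 250 bases before to 50 bases after a transcript start, and none was matched for AKR1B10. The AKR1C windows are printed because these genes sit side by side and, as given further on, differed in how far their levels moved. Capitals mark the bases that differ from the aligned AKR1C1 window or face a gap in it; in AKR1C1 itself they mark the same against AKR1C2. The windows lie at chr10:4963165-4963464 on the plus strand for AKR1C1, at chr10:5003808-5004107 on the minus strand for AKR1C2 and at chr10:5094164-5094463 on the plus strand for AKR1C3, which has a further start within its annotated span.
AKR1C1: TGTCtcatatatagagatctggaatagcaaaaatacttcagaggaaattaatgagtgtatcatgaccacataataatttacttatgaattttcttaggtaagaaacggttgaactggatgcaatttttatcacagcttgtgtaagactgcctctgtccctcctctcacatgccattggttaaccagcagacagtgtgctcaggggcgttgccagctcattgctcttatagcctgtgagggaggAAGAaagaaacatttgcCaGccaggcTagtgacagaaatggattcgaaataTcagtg
AKR1C2: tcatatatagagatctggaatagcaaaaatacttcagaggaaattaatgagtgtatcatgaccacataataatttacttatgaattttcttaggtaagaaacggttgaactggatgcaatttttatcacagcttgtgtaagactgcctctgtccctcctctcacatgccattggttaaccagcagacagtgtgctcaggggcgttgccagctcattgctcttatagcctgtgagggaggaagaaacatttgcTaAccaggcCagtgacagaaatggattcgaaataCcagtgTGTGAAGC
AKR1C3: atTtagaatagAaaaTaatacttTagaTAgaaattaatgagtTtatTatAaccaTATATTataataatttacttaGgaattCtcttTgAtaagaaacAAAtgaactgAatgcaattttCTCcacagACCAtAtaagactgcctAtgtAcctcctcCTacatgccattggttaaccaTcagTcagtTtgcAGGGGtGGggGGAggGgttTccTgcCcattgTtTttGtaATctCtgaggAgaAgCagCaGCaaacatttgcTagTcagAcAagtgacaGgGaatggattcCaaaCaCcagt
The AKR1C1 and AKR1C2 windows were 93.5% identical over their alignment, and the AKR1C1 and AKR1C3 windows 71.6%. On both strands, the antioxidant response element core TGACNNNGC was in none of the 7 windows of the 5 members, and 13.3% of the 35116 windows of 300 bases hold it. The AP-1 site TGAGTCA was also in none of them, against 4.95% of the same windows. Neither search says anything about sites outside these letters or this window.

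The transcripts of AKR1C1 and AKR1C2 share long runs of sequence. Of the distinct 90-base words in their GENCODE 29 transcripts, 18.5% of AKR1C1's and 25.5% of AKR1C2's also occur in another gene, nearly all of them in each other. The figures were 2.17% for AKR1C3, 2.66% for AKR1B10, which shares words with AKR1B15 and the pseudogene AKR1B10P1, and 0% for both AKR1B1 and AKR1A1. The words run over whole transcripts, whereas the libraries were made with a 3' kit, and the length of 90 bases was assumed. These figures therefore do not gauge the sequence that was read. How reads in shared stretches were assigned is not given in the sources used here, so the split between AKR1C1 and AKR1C2 is less certain than either gene's direction in time.

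The libraries held 1927 to 3705 kept cells and 85376888 to 114350566 unique molecular identifiers (UMIs), of which 55135 to 159735 belonged to the 6 members. Cells of the 72 h inhibitor library were deeper than the others, with a median of 41573 UMIs against 26540 to 33712.5, and each pair of libraries shared 0 to 7 cell barcodes. All 6 epithelial markers reached 10 CPM, and their sum ranged from 5737.1 to 11185.7 CPM, while 0 of 6 mesenchymal, 0 of 5 immune and 0 of 3 endothelial markers did. Among hormone receptors, ESR1 was between 3.45 and 12.5 CPM, PGR was at most 0.0375 CPM and ERBB2 was between 8.9 and 20 CPM.

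Levels are in CPM, the UMIs of a gene summed over the kept cells of a library and scaled by the library's total. They are compared between libraries and not between genes. AKR1C1 stood at 51.2 CPM in untreated cells at 0 h, 48.4 CPM after 6 h of inhibitor, 131 CPM after 72 h of inhibitor, 134 CPM in untreated cells at 72 h and 126 CPM in recovery cells. The 3 late libraries thus lay close together and the 2 early ones lower, and the intervals of the 72 h inhibitor and 72 h untreated libraries overlapped. AKR1C2 had 114, 110.1, 602, 405 and 339 CPM in the same order of libraries. Its highest level was that of the 72 h inhibitor library, and no neighbouring intervals overlapped. AKR1C3 had 8.25, 6.57, 88.4, 59.0 and 147 CPM. It was highest in recovery cells, and its highest level was 22.4-fold its lowest, the widest range of the 6 genes.

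Of the AKR1B genes and AKR1A1, only AKR1B1 broke the order of late above early libraries. AKR1B1 had 287, 248, 284, 633 and 608 CPM in the library order just given. Its 72 h inhibitor level lay next to that of untreated cells at 0 h, with overlapping intervals, and apart from the other 2 late libraries. AKR1B10 had 50.9, 42.4, 138, 189 and 180.3 CPM. AKR1A1 had 70.6, 61.3, 89.7, 128 and 163 CPM. Like the other members, both were lowest at 6 h of inhibitor. They also had all 3 late libraries above both early ones, as did the AKR1C genes, and no overlapping neighbours. The widest relative interval belonged to AKR1C3 at 6 h of inhibitor, at 6.09 to 7.08 CPM from 701 UMIs.

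**Figure D1:**
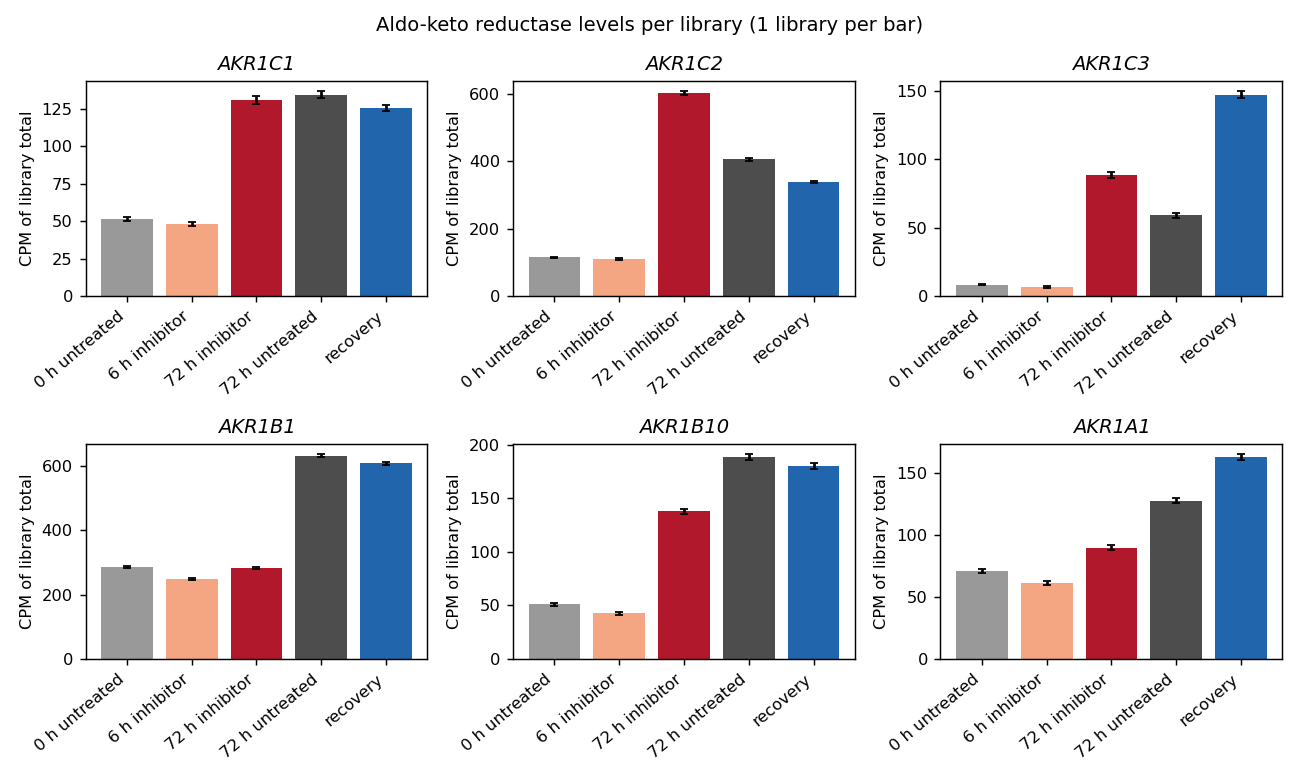
Level of each aldo-keto reductase gene in CPM (vertical axis, from 0, 1 panel per gene) in the 5 libraries, with bars for the summed level and lines for the exact 95% Poisson interval of counting error. AKR1C2 is highest at 72 h of inhibitor (602 CPM), AKR1C3 in recovery cells (147 CPM), and AKR1B1 stands at 284 CPM at 72 h of inhibitor against 633 CPM in untreated cells at 72 h.

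The untreated libraries showed how the members stood after 72 h of culture without inhibitor. All 6 genes were higher in untreated cells at 72 h than at 0 h, as were 58.9% of 9303 genes by any amount. A gene was counted as apart when it was more than 2-fold different and reached 10 CPM in at least 1 of both libraries, and 5 of 6 members were apart, all higher, where 5.56% of those genes were that much higher and 7.04% that far apart in either direction. AKR1C3 was 7.15-fold higher (95% interval 6.67 to 7.67), and only 3 of those genes had a larger ratio. AKR1B10 was 3.71-fold higher (3.60 to 3.82) and AKR1C2 3.54-fold higher (3.47 to 3.61). AKR1C1 was 2.62-fold higher (2.54 to 2.71), AKR1B1 2.21-fold (2.18 to 2.24) and AKR1A1 1.81-fold (1.76 to 1.86). The median log2 ratio of the members was 1.61, against 0.10 over all genes tested. AKR1B1 was under 2-fold when libraries were scaled by median of ratios or by trimmed mean of M values, at log2 ratios of 0.88 and 0.90. The untreated libraries differ in time alone by their labels, and what else differed between the cultures was not tested.

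The comparison of 72 h of PF0517515 with untreated cells at 72 h addresses the effect of the inhibitor at a matched time. Here the family divided. AKR1C2, which inactivates dihydrotestosterone, had 602 CPM in treated cells and 405 CPM in untreated cells, 1.49-fold higher (1.47 to 1.51). AKR1C3 had 88.4 CPM in treated cells and 59.0 CPM in untreated cells, 1.5-fold higher (1.45 to 1.55). Both ratios were larger than those of most genes, with 716 and 690 of 9346 tested genes above them. AKR1C1 had 131 CPM in treated cells and 134 CPM in untreated cells, a ratio of 0.975 (0.950 to 1.00) whose sign turned under 3 other scalings of the libraries, to a log2 ratio of as much as 0.20.

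AKR1B1 went the other way. It had 284 CPM in treated cells and 633 CPM in untreated cells, 2.23-fold lower (2.20 to 2.26), and 475 of 9346 genes had a lower ratio. AKR1B10 was 1.37-fold lower (1.34 to 1.40), at 138 CPM in treated cells and 189 CPM in untreated cells. AKR1A1 was 1.42-fold lower (1.38 to 1.46), at 89.7 CPM in treated cells and 128 CPM in untreated cells. Only AKR1B1, 1 of 6, passed 2-fold, where 7.35% of all genes were that much lower, 1.98% that much higher and 9.33% either. That count is near the background, and it fell to 0 with median-of-ratios or trimmed-mean scaling, where the log2 ratio of AKR1B1 was -0.92 and -0.93 in place of -1.16. The members' median log2 ratio of -0.25 was also close to the -0.14 of all genes. In raw counts per cell, AKR1B1 averaged 12.6 UMIs in treated cells and 20.3 UMIs in untreated cells, although treated cells were the deeper ones. AKR1B10 averaged 6.1 UMIs in treated and 6.06 UMIs in untreated cells, and AKR1A1 3.98 and 4.11 UMIs. For AKR1B10 and AKR1A1 the raw counts per cell were thus nearly equal, and their lower levels hold relative to the library total. The AKR1C genes averaged more raw UMIs in the deeper treated cells than in untreated cells. AKR1C2 had 26.7 and 13 UMIs, AKR1C3 3.92 and 1.9, and AKR1C1 5.8 and 4.32. The ratio of 0.975 for AKR1C1 thus also holds relative to the library total.

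These values differed with the untreated library they were set against. Against untreated cells at 0 h, the 72 h inhibitor library had 4 of 6 members more than 2-fold apart, where 18.8% of 9207 genes were. The log2 ratio of AKR1B1 was -0.02. AKR1C1, AKR1B10 and AKR1A1 changed sign. Their log2 ratios were -0.04, -0.45 and -0.51 against untreated cells at 72 h, and 1.35, 1.44 and 0.35 against those at 0 h. For AKR1C2 and AKR1C3 the log2 ratios against untreated cells at 0 h were 2.40 and 3.42, against 0.57 and 0.58 with untreated cells at 72 h.

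At 6 h of PF0517515 the members were close to untreated cells at 0 h. AKR1C1 had 48.4 CPM in treated cells and 51.2 CPM in untreated cells, a ratio of 0.945 (0.910 to 0.981). AKR1C2 had a ratio of 0.962 (0.939 to 0.987), which turned above 1 with equal weight per cell and in the cells with few cell cycle UMIs described further on. The ratios of AKR1B1, AKR1B10 and AKR1A1 were 0.865, 0.834 and 0.869. All 5 members measured were thus slightly lower at 6 h, and 0 of 5 passed 2-fold, where 2.13% of 9075 genes did in either direction. In this comparison 60.2% of all genes were higher by any amount, and the members' median log2 ratio was -0.20, against 0.10 over all genes. AKR1C3 was under 10 CPM in both libraries, at 6.57 CPM at 6 h of inhibitor and 8.25 CPM at 0 h untreated, and stayed out of the count.

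Between 6 h and 72 h of inhibitor, 4 of 6 members were more than 2-fold higher at 72 h, where 4.56% of 9359 genes were and 15.8% were that far apart in either direction. All 6 members were higher by some amount, as were 38.3% of those genes. AKR1C3 was 13.5-fold higher (12.4 to 14.6), with 7 of those genes above it. AKR1C2 was 5.47-fold higher (5.36 to 5.58), AKR1B10 3.24-fold (3.13 to 3.36) and AKR1C1 2.71-fold (2.62 to 2.80). AKR1A1 was 1.46-fold higher (1.42 to 1.51) and AKR1B1 1.14-fold (1.12 to 1.16). AKR1B1 was the member nearest to its early level, whereas in untreated cells it was 2.21-fold higher at 72 h than at 0 h. These 2 libraries differ in time in culture as well as in exposure, which cannot be told apart here.

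**Figure D2:**
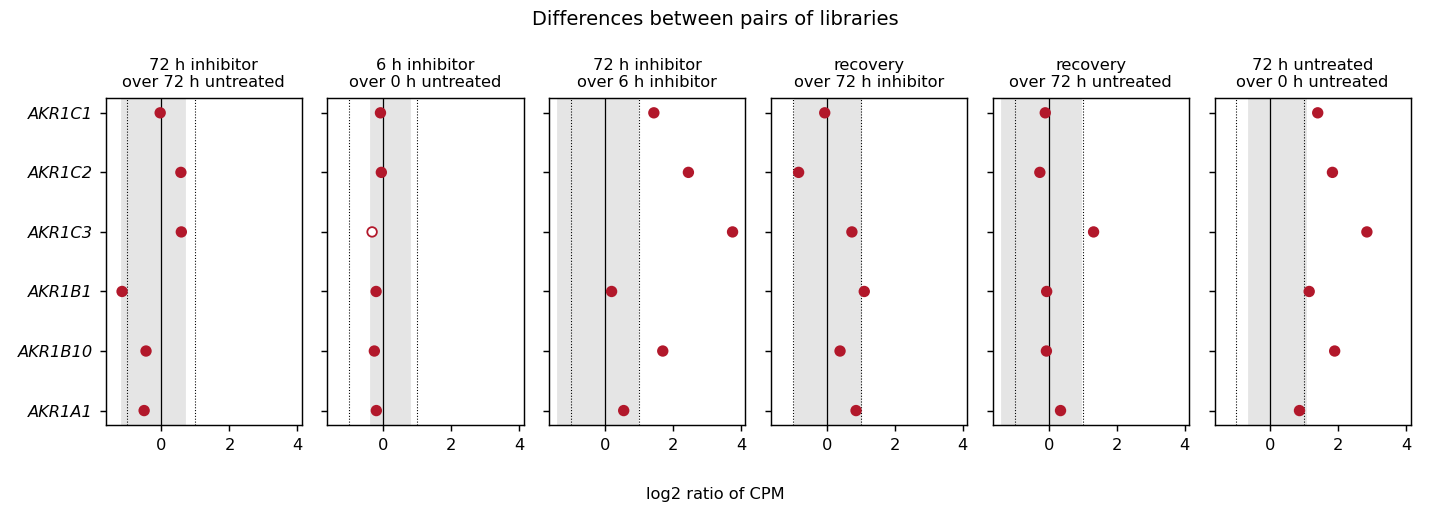
Log2 ratio of each member (horizontal axis) in the 6 comparisons of libraries, 1 panel each, with points for the ratio of CPM, whose exact 95% intervals of counting error are narrower than or near the point's width; dotted lines mark 2-fold, the grey band the range from the 5th to the 95th percentile of all tested genes and the open circle AKR1C3 under 10 CPM in both libraries. AKR1C2 and AKR1C3 lie at 0.57 and 0.58 and AKR1B1 at -1.16 for 72 h of inhibitor over 72 h untreated, while all 6 members lie above 0 for 72 h untreated over 0 h untreated.

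Recovery cells were compared with the end of treatment and with untreated cells at 72 h. AKR1B1 had 608 CPM in recovery cells and 284 CPM at 72 h of inhibitor, 2.15-fold higher (2.11 to 2.18), and its recovery level was close to the 633 CPM of untreated cells at 72 h. AKR1A1 was 1.81-fold higher (1.77 to 1.86) in recovery cells than at 72 h of inhibitor, and AKR1B10 1.31-fold (1.28 to 1.34). AKR1C2 was 1.78-fold lower (1.75 to 1.80), at 339 CPM in recovery cells and 602 CPM at 72 h of inhibitor. AKR1C1 had a ratio of 0.959 (0.934 to 0.983). AKR1C3 parted from AKR1C2 and was 1.67-fold higher (1.62 to 1.71), at 147 CPM in recovery cells and 88.4 CPM at 72 h of inhibitor. Only AKR1B1, 1 of 6, passed 2-fold, where 5.09% of 8943 genes were that much higher and 9.3% that far apart in either direction. In cells with few cell cycle UMIs its ratio was under 2-fold, with a log2 value of 0.90 against 1.10 in all cells. By any amount 4 of 6 members were higher, and 49.4% of those genes.

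Against untreated cells at 72 h, AKR1C3 was the 1 member of 6 past 2-fold, where 4.52% of 9405 genes were that much higher and 15.5% that far apart in either direction. By any amount 2 of 6 members were higher, and 38.7% of those genes. It had 147 CPM in recovery cells and 59.0 CPM in untreated cells, 2.50-fold higher (2.42 to 2.58), and 200 genes had a larger ratio. AKR1A1 was 1.28-fold higher (1.25 to 1.31). The ratios of AKR1C1, AKR1C2, AKR1B1 and AKR1B10 were 0.934, 0.837, 0.962 and 0.956, and each of these 4 turned above 1 under median-of-ratios scaling, where the log2 median over all genes shifted by 0.282. The members' median log2 ratio was -0.06, against -0.17 over all genes. No untreated library of the age of the recovery culture was analysed here. Several of the 6 comparisons share a library, so their values stand side by side and are not independent of each other.

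The balance among the neighbouring AKR1C genes also differed between libraries. Per UMI of AKR1C1 there were 2.24 UMIs of AKR1C2 in untreated cells at 0 h, 2.28 after 6 h of inhibitor, 4.60 after 72 h of inhibitor, 3.02 in untreated cells at 72 h and 2.70 in recovery cells. The 72 h inhibitor library stood apart, with a 95% interval of 4.51 to 4.70, against 2.96 to 3.08 in untreated cells at 72 h. For AKR1C3 per UMI of AKR1C2 the values were 0.0721, 0.0597, 0.147, 0.145 and 0.435 in the same order. Both 72 h libraries were alike in that ratio, whether treated or not, and recovery cells were well above them. AKR1B10 had 4.77, 4.66, 2.84, 5.06 and 4.25 UMIs per UMI of its neighbour AKR1B15, lowest at 72 h of inhibitor. AKR1B15 itself had 10.7, 9.10, 48.4, 37.3 and 42.4 CPM, and was 1.3-fold higher (1.24 to 1.36) in treated than in untreated cells at 72 h.

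Among the other aldo-keto reductases, AKR7A2, which reduces succinic semialdehyde and aflatoxin aldehydes, had 53.2, 46.0, 23.3, 39.1 and 24.1 CPM in the same order. It was 1.68-fold lower (1.59 to 1.78) at 72 h of inhibitor than in untreated cells at 72 h. AKR1E2 stayed between 6.22 and 12.3 CPM. AKR1C4, AKR1C8P, AKR1D1 and AKR7A3 had at most 26 UMIs in any library. Of the 3 other family genes measured at 72 h, 1 was higher and 2 were lower in treated than in untreated cells.

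To compare detection at equal depth, each cell was thinned to 5000 UMIs and the share of cells with a UMI was counted. Such a share also rises with the RNA per cell, so it cannot separate more cells from more RNA per cell. AKR1C2 was found in 31.6% of untreated cells at 0 h, 30.6% after 6 h of inhibitor, 70.6% after 72 h of inhibitor, 66.3% of untreated cells at 72 h and 64.2% of recovery cells. The exact 95% binomial interval was 68.5 to 72.7% at 72 h of inhibitor and 64.5 to 68.0% in untreated cells at 72 h, so the shares were close where the level was 1.49-fold higher. AKR1C3 was found in 3.76%, 2.84%, 22.2%, 21.1% and 39.3% of cells in the same order. AKR1C1 was found in 18.4%, 17.8%, 36.8%, 38.6% and 36.4%. For the AKR1C genes, both 72 h libraries therefore had nearly equal shares. In these thinned cells the log2 ratio of AKR1C3 between both 72 h libraries was 0.40, against 0.58 without thinning.

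AKR1B1 was found in 64.5%, 60.1%, 65.3%, 79.7% and 85.4% of thinned cells, lower at 72 h of inhibitor than in either other late library. AKR1B10 was found in 20.5%, 17.6%, 39.9%, 51.9% and 50.5%, and AKR1A1 in 29.7%, 27.4%, 33.5%, 45.4% and 53.4%. Thinning left out 5, 10, 59, 35 and 75 cells. Before thinning, AKR1C3 was found in 15.0%, 15.1%, 53.9%, 52.6% and 73.0% of cells and AKR1B1 in 95.5%, 95%, 94.2%, 96.5% and 97.2%. The libraries hold 1 cell line, so no cell type that lacks these genes was there to measure the share that free RNA gives. The lowest shares were those of AKR1C3 at 0 h and 6 h, where its counts were uneven between cells, with a variance over mean of 1.69 and 1.38 at 10000 UMIs per cell, where even counting gives 1.

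**Figure D3:**
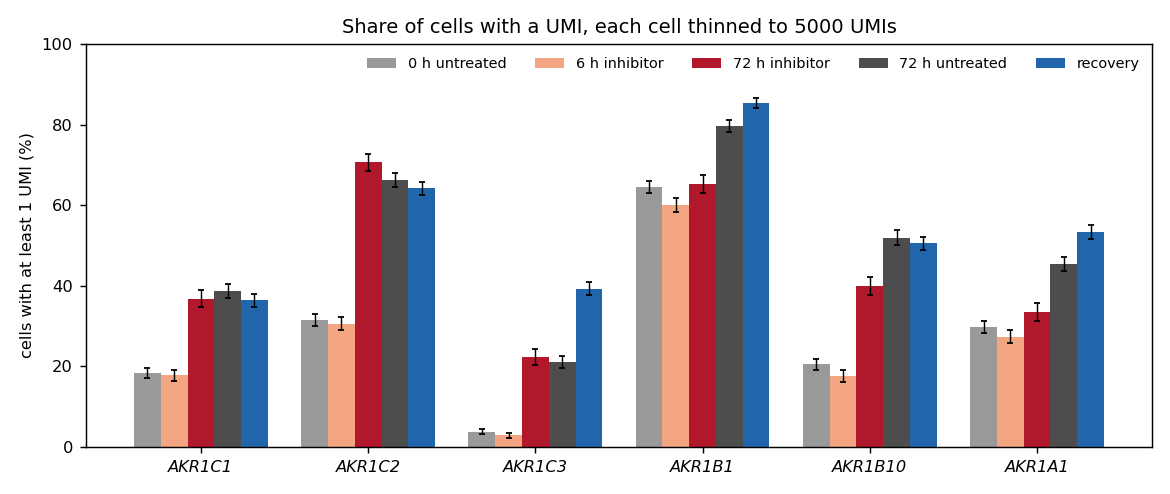
Percent of cells with at least 1 UMI of each member (vertical axis, from 0; bars grouped by gene) in the 5 libraries after thinning every cell to 5000 UMIs, with lines for exact 95% binomial intervals. AKR1C2 lies between 64.2% and 70.6% in the 3 late libraries and AKR1C3 reaches 39.3% in recovery cells, while AKR1B1 is at 65.3% at 72 h of inhibitor against 79.7% in untreated cells at 72 h.

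The members differed in how unevenly cells carried them. At 10000 UMIs per cell, the variance of AKR1C2 over its mean was 3.76 in untreated cells at 0 h, 3.89 after 6 h of inhibitor, 7.54 after 72 h of inhibitor, 5.95 in untreated cells at 72 h and 4.52 in recovery cells. Poisson counting alone gives 1, and AKR1A1 lay between 1.03 and 1.19. AKR1A1 was thus spread almost as evenly as counting allows and AKR1C2 was not. Variance over mean also rises with the mean where the relative spread is equal. The means of AKR1C2 were 1.17, 1.2, 5.82, 4.16 and 3.35 UMIs in the order just given, so its values do not rank the libraries by unevenness. The 10% of cells with most AKR1C2 held 52.5%, 53.9%, 35.2%, 37.7% and 37.0% of its UMIs in the same order. The share was largest in the early libraries, where the counts were lowest, and a lower count alone also raises it. AKR1C3 had a variance over mean of 4.14 at 72 h of inhibitor and 2.37 in untreated cells at 72 h, where the shares of cells were nearly equal. The highest single cell had 89 thinned UMIs of AKR1C2 at 72 h of inhibitor and 55 in untreated cells at 72 h, and doublets were not removed.

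The AKR1C genes varied together from cell to cell. Within each library, Pearson's r of log-scaled counts thinned to 10000 UMIs was computed over 1793 to 3678 cells, which share a library and, after thinning, a depth, so r is a description. For AKR1C1 and AKR1C2 it was 0.517 in untreated cells at 0 h, 0.521 after 6 h of inhibitor, 0.511 after 72 h of inhibitor, 0.569 in untreated cells at 72 h and 0.501 in recovery cells. Shared transcript sequence may place reads of 1 gene in the other, and its part in this value was not tested. For AKR1C2 and AKR1C3, which share few words, r was 0.221, 0.226, 0.381, 0.353 and 0.416. It was higher in the 3 late libraries, in which AKR1C3 was also more often detected.

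Cells were also ranked by AKR1C2, and the 25% with most were set beside the 25% with least. Mean AKR1C3 was 9.22-fold higher in the top than in the bottom group at 72 h of inhibitor, at 1.83 and 0.199 UMIs per cell. In untreated cells at 72 h it was 6.38-fold higher, at 1.22 and 0.192, and in recovery cells 4.36-fold, at 2.77 and 0.635. In the early libraries, where AKR1C3 was low, the ratios were 7.2 in untreated cells at 0 h, at 0.196 and 0.0272, and 3.94 at 6 h of inhibitor, at 0.174 and 0.0442. AKR1B1 ran against AKR1C2 in 4 of 5 libraries. Its ratio of top to bottom group was 0.655, 0.613, 0.834, 0.607 and 1.06 in the order used above. Pearson's r of AKR1C2 and AKR1B1 was -0.198, -0.220, -0.068, -0.251 and 0.015. The negative relation was thus weak, and it was near 0 in the 72 h inhibitor and recovery libraries. AKR1B1 and AKR1B10 had r between 0.198 and 0.338 in the 5 libraries, and AKR1B10 and AKR1C2 between -0.031 and 0.196, with the highest value at 72 h of inhibitor.

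**Figure D4:**
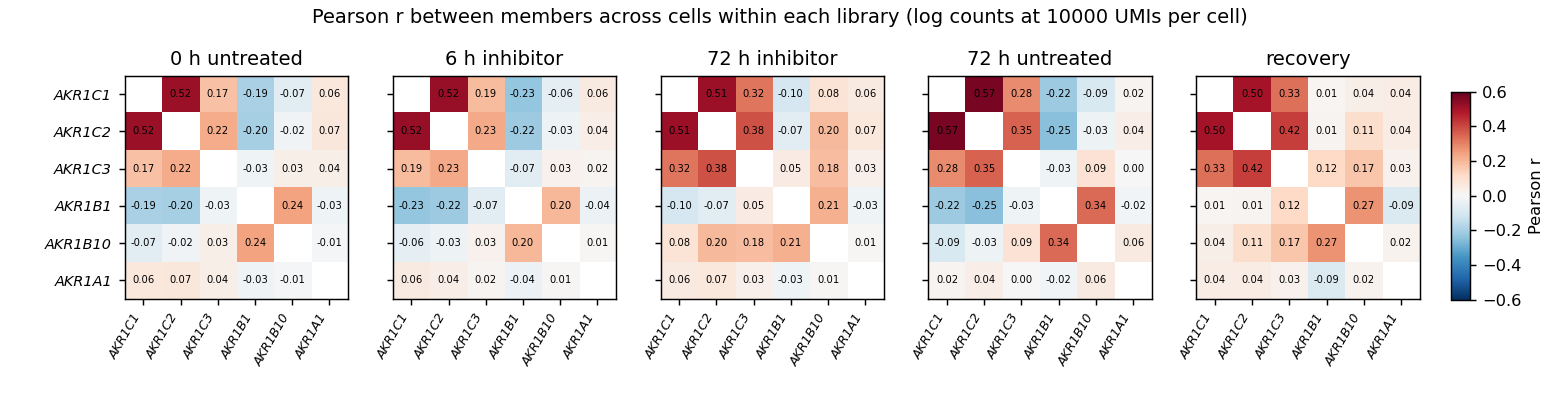
Pearson's r between members across cells within each of the 5 libraries (colour scale, values printed in the squares, 1 panel per library), with counts thinned to 10000 UMIs per cell. AKR1C1 and AKR1C2 lie at 0.501 to 0.569 in all 5 libraries, and AKR1C2 and AKR1B1 between -0.251 and 0.015.

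The libraries differed in their share of cells with few UMIs of cell cycle genes, so the members were also read in cells grouped by these genes. A cell was put in the low group when its thinned UMIs of both the S phase and the G2/M lists were at or under the median of untreated cells at 0 h, which was 15 and 18 UMIs. This low group held 28.9% of untreated cells at 0 h, 31.8% after 6 h of inhibitor, 74.7% after 72 h of inhibitor, 46.9% of untreated cells at 72 h and 42.9% of recovery cells. CPM is scaled here by the UMI total of the group's own cells. At 72 h of inhibitor AKR1C2 had 684 CPM in the low group and 374 CPM in the other cells, 1.83-fold higher (1.79 to 1.87). AKR1C1 was 1.74-fold higher (1.66 to 1.83) and AKR1C3 1.76-fold (1.66 to 1.87) in the low group, while AKR1A1 was 1.05-fold (1.00 to 1.11). In untreated cells at 72 h the same ratios were 1.22 for AKR1C2, 1.19 for AKR1C1 and 1.00 for AKR1C3. The AKR1C genes thus differed more between the groups at 72 h of inhibitor than in untreated cells of that time. AKR1B1 was lower in the low group in all 5 libraries, with ratios of 0.923, 0.929, 0.890, 0.805 and 0.771.

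The 72 h inhibitor library was then set against the 72 h untreated library within each group of cells. In the low group AKR1C2 was 1.51-fold higher (1.48 to 1.53) and AKR1C3 1.69-fold (1.61 to 1.77) in treated cells. In the other cells AKR1C2 had 374 CPM in treated cells and 371 CPM in untreated cells, a ratio of 1.01 (0.983 to 1.03), and AKR1C3 had a ratio of 0.964 (0.902 to 1.03). All these ratios use the UMI total of the group's own cells in each library. The median log2 ratio of all genes was -0.11 in the low group and -0.12 in the others. Over all cells, median-of-ratios scaling raised the log2 ratios of AKR1C2 and AKR1C3 to 0.81 and 0.82. Within the groups no other scaling was run, so the ratio near 1 in the other cells is known for this scaling alone. The difference between the groups of cells was not tested. AKR1C1 had a ratio of 0.996 (0.964 to 1.03) in the low group and was 1.47-fold lower (1.40 to 1.55) in the other cells. AKR1B1 was lower in both, 2.02-fold (1.98 to 2.06) in the low group and 2.23-fold (2.18 to 2.29) in the others. In recovery cells outside the low group, AKR1C3 was 2.63-fold higher (2.48 to 2.79) than at 72 h of inhibitor, at 149 CPM in recovery cells and 56.7 CPM in treated cells. The low group's cells were shallower in every library, with a median of 40577.5 against 47711 UMIs in the others at 72 h of inhibitor and 25687.5 against 33017 in untreated cells at 72 h, and the part of depth in these ratios was not tested.

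**Figure D5:**
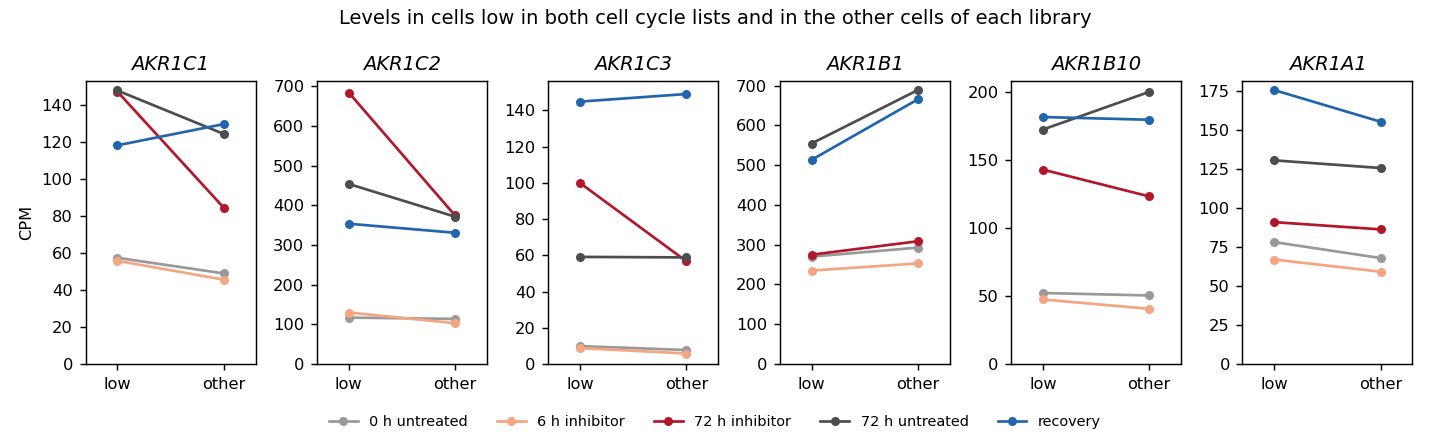
Level of each member in CPM of the group's own total (vertical axis, from 0) in the low group, cells with few S phase and G2/M UMIs, and in the other cells, with a line joining both points of each library. At 72 h of inhibitor AKR1C2 is at 684 CPM in the low group and 374 CPM in the others, and in untreated cells at 72 h at 454 and 371 CPM.

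Depth within a library moved with some members too. AKR1B1 was higher in the cells above the median UMI count than in those at or under it in all 5 libraries, 1.19-, 1.19-, 1.17-, 1.40- and 1.12-fold. At 6 h of inhibitor AKR1C1, AKR1C2 and AKR1C3 had ratios of 0.6, 0.623 and 0.647 between the same groups, and at 72 h of inhibitor 1.00, 1.01 and 1.04.

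Outside the 6 members, whose own pairs are given above, the genes most like each member were taken as those of at least 20 CPM in a library with the highest mean r over the 5 libraries, among 7556 ranked at 5000 UMIs per cell. For AKR1C2 these were FTH1, the ferritin heavy chain, at a mean r of 0.230, CYP1B1, a steroid and retinoid hydroxylase, at 0.219, CLDN10 at 0.180, AZGP1 at 0.173 and CHODL at 0.170. For AKR1C1 they were FTH1 at 0.205, AARD at 0.176, the protease MMP7 at 0.176, PI3 at 0.159 and CLDN10 at 0.156. AKR1C3 had only CYP1B1 above 0.1 among genes outside the members, at 0.113. AKR1B1 had a different set, with the actin-binding TMSB4X at 0.272, the keratin KRT18 at 0.238, S100A10 at 0.175, KLK6 at 0.173 and KRT8 at 0.166. AKR1B10 had TMSB4X at 0.143, KRT18 at 0.130, ID1 at 0.126, CASP14 at 0.125 and S100A9 at 0.117, and AKR1A1 had none outside the members at 0.1 or more. All these correlations are weak and describe an order of genes, not a relation. Of 27 ranked NRF2 targets, 25 had a positive mean r with AKR1C1, 26 with AKR1C2 and 25 with AKR1C3, against 16 with AKR1B1, 18 with AKR1B10 and 20 with AKR1A1. Over all ranked genes, 43.3%, 44.9%, 40.7%, 39.5%, 37.8% and 39.3% had a positive mean r with the members in the same order. The median r of the NRF2 targets was 0.007 to 0.055, against -0.006 to -0.002 over all ranked genes.

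Other genes of the pathways around the family were read from lists, with the count of genes higher or lower and the median log2 ratio. NRF2 targets had 26 of 28 measured genes higher in untreated cells at 72 h than at 0 h, with a median of 0.46 against 0.10 over all genes. Those furthest apart were SLC7A11, the cystine transporter, 3-fold higher, the biliverdin reductase BLVRB, 2.32-fold, and the epoxide hydrolase EPHX1, 1.93-fold. At 72 h, 12 of 29 were higher and 17 lower in treated than in untreated cells, with a median of -0.07 against -0.14. The ferritin chains FTL and FTH1 were 3.94-fold and 2.75-fold higher, and HMOX1, the haem oxygenase, 3.51-fold, at 52.4 CPM in treated cells and 14.9 CPM in untreated cells. These were the 3 targets more than 2-fold higher. The 2 targets more than 2-fold lower were PRDX1, 2.09-fold, and SLC48A1, 2.08-fold. At 6 h of inhibitor against 0 h, 17 of 27 targets were higher, with a median of 0.11 against 0.10, and 60.2% of all genes were higher. The list as a whole was thus close to all genes. Within it, SLC7A11 was 4.04-fold higher and GCLC, the catalytic subunit of glutathione synthesis, 2.95-fold. The 5 measured members had ratios of 0.834 to 0.962. In recovery cells against untreated cells at 72 h, 13 of 29 targets were higher and 16 lower, with a median of -0.02 against -0.17. Among 11 NRF2 regulators at 72 h, 6 were higher in treated than in untreated cells, including SQSTM1, which sequesters KEAP1, 2.81-fold, and the small MAF protein MAFG, 2.26-fold. The other 5 were lower, with RBX1 furthest, at 1.43-fold. MAFG was 4.08-fold higher in recovery cells than in untreated cells at 72 h.

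Of 18 measured genes of carbonyl and aldehyde metabolism, 13 were lower in treated than in untreated cells at 72 h, with a median of -0.29, and CBR4, a mitochondrial carbonyl reductase, was 2.77-fold lower. In recovery cells against the same untreated cells, ALDH1A3, which makes retinoic acid, was 2.82-fold lower. Of 16 measured genes of steroid, prostaglandin and retinoid metabolism, 13 were lower in treated than in untreated cells at 72 h, with a median of -0.27, among them SRD5A3, 2.17-fold. HSD17B2, which oxidises oestradiol and testosterone the reverse of the AKR1C3 reaction, was 3.54-fold lower in recovery cells than in untreated cells at 72 h, at 14.0 CPM in recovery cells and 49.7 CPM in untreated cells. Around AKR1B1, 5 of 6 osmotic and polyol genes were lower in treated than in untreated cells at 72 h, with a median of -0.19. NFAT5, the osmotic transcription factor known to induce AKR1B1, was 1.31-fold lower there, at 50.7 CPM in treated cells and 66.2 CPM in untreated cells, and 1.66-fold higher in untreated cells at 72 h than at 0 h. In the comparisons with 6 h of inhibitor, NFAT5 and AKR1B1 went opposite ways. At 6 h of inhibitor NFAT5 was 1.56-fold higher than in untreated cells at 0 h, where AKR1B1 had a ratio of 0.865. At 72 h of inhibitor NFAT5 was 1.23-fold lower than at 6 h, where AKR1B1 was 1.14-fold higher. In recovery cells both were higher than at 72 h of inhibitor, NFAT5 1.17-fold and AKR1B1 2.15-fold. Recovery cells against untreated cells at 72 h had ratios of 0.895 for NFAT5 and 0.962 for AKR1B1. Whether NFAT5 bears on AKR1B1 was not tested. Over all genes, 39% were higher in treated than in untreated cells at 72 h, with a median of -0.14. Most genes were thus not higher either, and whether these lists went further than all genes was not tested.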

How the data were processed

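RNA of single MDA-MB-468 cells was measured in 5 libraries, 1 per group, with the 10x 3' version 3.1 kit, per the labels' protocols. The authors deposited UMI counts for 36601 features and each cell barcode. Per the submitters' processing notes, reads were counted with Cell Ranger 7.1.0 on GRCh38. Neither the release of the annotation nor the treatment of intronic reads is stated in the labels or headers.

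Cells were kept from 1000 detected genes upward and up to 20% mitochondrial UMIs, and doublets were not removed. Counts of these cells were added up in each library and divided by its total to give CPM. Ratios carry exact 95% Clopper-Pearson intervals conditional on the sum of both counts, and levels carry exact Poisson intervals. UMIs remove amplification copies, and the intervals cover counting error only, not the spread between cultures. Cells were not used as replicates, and no test was made. The shares of cells, the spread and the correlations used cells thinned at random to 5000 or 10000 UMIs. The ratio script was tested on simulated data. The tools were scipy 1.17.1, pandas 2.3.3 and numpy 2.4.6 under Python 3.11.15 and, for trimmed-mean factors, edgeR 4.0.16.

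The members and gene lists were chosen with earlier results of these data known. All 6 members are named in each comparison, other family genes where they reach 1 CPM, and up to 3 genes per list and comparison with the largest ratio at 10 CPM or more. Single family genes under 1 CPM are named only to account for them. The list genes named here are a selection of those. PRDX1 and SLC48A1 were added as the NRF2 targets more than 2-fold lower at 72 h of inhibitor, and NFAT5 is given in every comparison. Alternatives were 12 planned settings (cell filters, scalings, expression minimum, thinning, equal weight per cell, cell cycle and the other untreated library) and 1 added after seeing the data, a stricter filter of 20000 UMIs or more and 10% mitochondrial UMIs or less. AKR7L was not analysed here.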

Additional observations from a re-analysis of the deposited data

How the results depend on the processing

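Each group has 1 library, so no replicate could be left out and culture-to-culture spread is unknown. No paired analysis was possible because each group has a single library, so the number 1 that all groups carry pairs nothing, and no test was made. Of 75 counts of members past 2-fold under alternative settings, 69 were within 1.5 times the reported count and 6 were not. For 72 h of inhibitor over 72 h untreated the count was 0 with median-of-ratios and 0 with trimmed-mean scaling, against 1. Of all genes tested, 8.13% and 8.11% were that far apart under these scalings. The count was 4 with untreated cells at 0 h as the reference, where 18.8% of genes were that far apart. For 6 h of inhibitor the count was 6 with untreated cells at 72 h as the reference, against 0, and 5.98% of genes were that far apart there. For recovery over 72 h of inhibitor the count was 0 in cells low in both cell cycle lists, against 1, with AKR1B1 at a log2 ratio of 0.90. In those cells 8.7% of genes were past 2-fold. For recovery over 72 h untreated the count was 6 with untreated cells at 0 h as the reference, against 1, and 25.4% of genes were that far apart there. The construction of the alternative gives the cause for the other references, and the cause was not tested elsewhere. Of 470 further values, 263 stayed within their counting interval and 207 did not. Part of this tally was fixed by the settings, so it does not measure how stable the values are. A changed expression minimum leaves the log2 ratio of a member as it was. A share of cells rises with the depth of thinning, so shares at the deeper thinning lay above the intervals of the shallower one. Among members past 2-fold in the reported setting, 0 changed sign. Members under 2-fold there did change sign in places. For 72 h of inhibitor, AKR1C1 and AKR1B10 had log2 ratios of -0.04 and -0.45 against untreated cells at 72 h. Against untreated cells at 0 h these were 1.35 and 1.44. The added setting of deep, low-mitochondrial cells left AKR1B1 at -1.18 for 72 h of inhibitor over 72 h untreated. Median-of-ratios scaling moved the median log2 ratio of all genes in that comparison by 0.251, more than the size of the log2 ratio of AKR1C1 and less than that of the other 5 members. Depth limits AKR1C3 most, with 701 UMIs at 6 h of inhibitor.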
